A study of Mus musculus with 6 samples.

Results

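Glycolysis and hypoxia-inducible genes were followed by name, as 36 of the 78409 genes in the table. They comprise 3 transporters of glucose and lactate, 17 glycolytic enzymes, 4 regulators of glycolytic flux, 4 oxygen-sensing genes and 8 other targets of the hypoxia-inducible factors (HIF). Each name matched 1 row of the table. Messenger RNA came from nephrogenic stroma, the interstitial cells around the forming nephrons of the fetal kidney, cultured on a silicone elastomer (PDMS) that carried much or little fibronectin. Fibronectin is a matrix protein that cells bind through integrins. High adhesion stood for PDMS incubated in 50000 ng/mL fibronectin and low adhesion for PDMS incubated in 500 ng/mL fibronectin, with 3 libraries each. All 6 libraries came from CD1 kidneys pooled at embryonic day 18, wild-type, and from cells sorted for the surface receptor PDGFRa and cultured for 18 h in DMEM with fetal bovine serum. Every sort used a buffer with Y27632, an inhibitor of the kinase ROCK. Each of 3 litters gave 1 high and 1 low adhesion library, so that a replicate is a litter. Oxygen was not a stated variable, and no oxygen level is given in the sources used here.

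Glycolysis splits glucose into pyruvate in the cytosol and yields ATP without oxygen, and lactate dehydrogenase turns pyruvate into lactate, which monocarboxylate transporters carry out of the cell. HIF is a pair of transcription factor subunits whose alpha part, HIF-1 alpha or HIF-2 alpha, is hydroxylated and degraded when oxygen is present. In hypoxia the alpha part persists, enters the nucleus and binds DNA at a short core, ACGTG or GCGTG, near the glycolytic genes and many others. Fetal kidney develops at low oxygen, and both alpha subunits are known there.

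Libraries held 12596249 to 13508257 estimated counts, so that 1 count was worth 0.074 to 0.0794 CPM, the count scaled by the total of its library. Of 11 genes listed as marks of the labelled stroma all were detected, and 7 fell and 2 rose at high adhesion. Their summed levels were 6044 to 6884 CPM at high and 6133 to 7004 CPM at low adhesion. Most of that sum was Vim, which rose, and Col1a1, which fell. Vim averaged 3623 CPM at high and 3333 CPM at low adhesion, and Col1a1 1376 and 1591 CPM. The receptor used for the sort, Pdgfra, averaged 21.1 CPM at high and 30.7 CPM at low adhesion. Of 7 tested epithelial markers 2 rose, Krt8 and Krt18. The list summed to 360.4 to 772.7 CPM at high and 224.2 to 518.6 CPM at low adhesion. Krt18 alone made up most of it, with a mean of 546 CPM at high and 333 CPM at low adhesion. The defining epithelial marker Epcam averaged 7.45 CPM at high and 5.91 CPM at low adhesion and did not pass. Of 5 markers of nephron progenitors 2 rose, Cited1 and Osr1, the second also being a stroma marker, and the list summed to 52.16 to 82.04 CPM at high and 39.98 to 64.97 CPM at low adhesion. No tested gene passed among 4 endothelial, 5 leukocyte and 5 erythroid markers, and no marker was at 0 in all libraries. Over all tested genes 9.55% passed, 4.71% higher and 4.83% lower, so the absence of calls in lists this short says little. What these shifts contribute to the values below was not tested, and in bulk RNA fewer cells of a type and less RNA per cell cannot be told apart.

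Lactate dehydrogenase A led the set. Divided by merged exon length, Ldha held 194 to 204 CPM per kilobase over the 6 libraries. Aldoa (the aldolase of most tissues) held 101 to 109 and Pkm (pyruvate kinase) 95.4 to 113 CPM per kilobase, ranges that overlapped. Eno1 (enolase) followed at 76.32 to 89.998 CPM per kilobase, and in plain CPM these 4 genes were the top 4 as well. The Eno1 values leave out its copy Eno1b, which took 32.9% to 34.5% of their joint counts. The place of Eno1 in both orders thus depends on how shared reads are assigned. Below them came Pgam1, Gapdh and Pgk1, from 50.1 to 64.3 CPM per kilobase. Egln1, an oxygen sensor, was the most abundant member outside the enzymes per kilobase, at 28.6 to 33.8. At the other end, Car9, the hypoxia-induced carbonic anhydrase, had 3, 2 and 2 counts at high adhesion and 3, 2 and 1 counts at low adhesion for litters 1, 2 and 3. Aldoc, the brain aldolase, had 1, 1 and 4 counts at high adhesion and 4, 4 and 6 at low adhesion. Neither reached the count needed for a test, and the other 34 genes did. Whether reads cover whole transcripts is not given in the sources used here, which limits per-kilobase comparisons between genes.

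**Figure D1:**
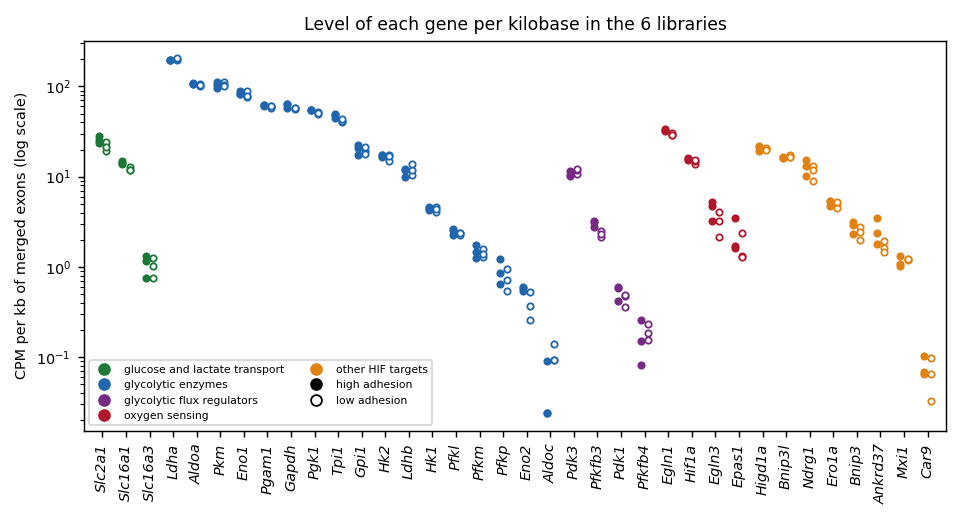
Level of each of the 36 genes in each library, as CPM per kilobase of merged exon on a log axis. Ldha lies highest, near 200 CPM per kilobase. Car9 has the lowest mean, while the lowest single points are those of Aldoc.

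Among the copies in the set, 1 held most of the per-kilobase level in most families. Relatives outside the set, such as Egln2, Pdk2, Pdk4 and Slc16a7, are not in these shares. In plain CPM, Egln2 averaged 32.9 at high and 35.3 at low adhesion, above Egln3 at 11.7 and 8.41. Ldha made up 93.7% to 95.2% of Ldha plus Ldhb, the heart-type subunit, over the 6 libraries. Hk2, the inducible hexokinase, made up 76.0% to 81.0% of Hk1 plus Hk2. Pfkfb3 made up 90.1% to 97.1% of the bifunctional phosphofructokinase-2 pair, Pdk3 94.5% to 97.0% of Pdk1 plus Pdk3, and Slc16a1 91.1% to 94.8% of Slc16a1 plus Slc16a3. Among oxygen-sensing genes, Egln1 made up 85.7% to 93.5% of Egln1 plus Egln3, and Hif1a 82.4% to 92.2% of Hif1a plus Epas1. Phosphofructokinase was the mixed family, with 43.5% to 55.7% Pfkl, 26.5% to 33.2% Pfkm and 12.6% to 23.3% Pfkp per kilobase. The order of Pfkm and Pfkp turned round in plain CPM, where Pfkp held 26.2% to 43.7%, so it depends on the length used. Per kilobase, the leading copy of each of these families was the same in all 6 libraries, while in plain CPM Pfkp exceeded Pfkl in the high adhesion library of litter 2 (16.3 against 15.2 CPM).

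At high adhesion 9 of the 34 tested genes rose relative to low adhesion of the same litter and none fell, by edgeR's quasi-likelihood test adjusted over 14834 genes. They were Slc2a1, Slc16a1, Tpi1, Pfkfb3, Epas1, Egln1, Egln3, Ankrd37 and Ndrg1. Among all tested genes 4.71% rose and 4.83% fell, 9.55% in all. At an unadjusted edgeR p under 0.05, 14 of the 34 lay higher and 0 lower, where 11.2% and 10.7% of all tested genes did, 21.9% in all. The changes were small, 1.11-fold to 1.51-fold, and the median over the 34 genes was 0.09 on the log2 scale, against -0.0012 over all tested genes, whose central 90% ran from -0.37 to 0.38. The 34 genes included 27 with a positive and 7 with a negative fold change. Together the 36 genes took 0.363%, 0.356% and 0.364% of all counts in the high adhesion libraries of litters 1, 2 and 3, and 0.343%, 0.351% and 0.347% in their low adhesion partners. These shares did not overlap between groups. The glycolytic enzymes alone took 0.292%, 0.285% and 0.293% in the high adhesion libraries and 0.279%, 0.287% and 0.283% in their low adhesion partners. The enzyme shares overlapped between groups, and in litter 2 the high adhesion library had the lower one. Differences in summed shares were not tested. The number of risen genes depended on the litter block and on the tool. DESeq2 with the same block called 1 of the 9, Slc2a1, and without the block edgeR called 0 of 34, with 6 at an unadjusted p under 0.05, where 9.16% of all tested genes were. Without litter 3 the count was 4, and Slc2a1, Pfkfb3 and Egln3 passed whichever litter was left out.

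**Figure D2:**
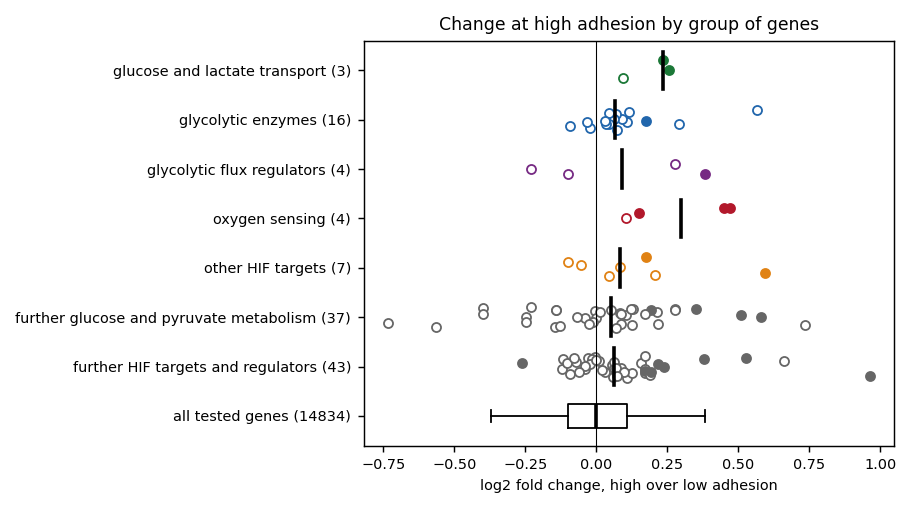
Log2 fold change, high minus low adhesion, of each tested gene by role, with filled points for genes that passed the threshold, a bar at each median, and a box for all 14834 genes with whiskers at the 5th and 95th percentile. The 9 risen genes are spread over all 5 roles, and only 1 of them is among the 16 tested enzymes.

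**Figure D3:**
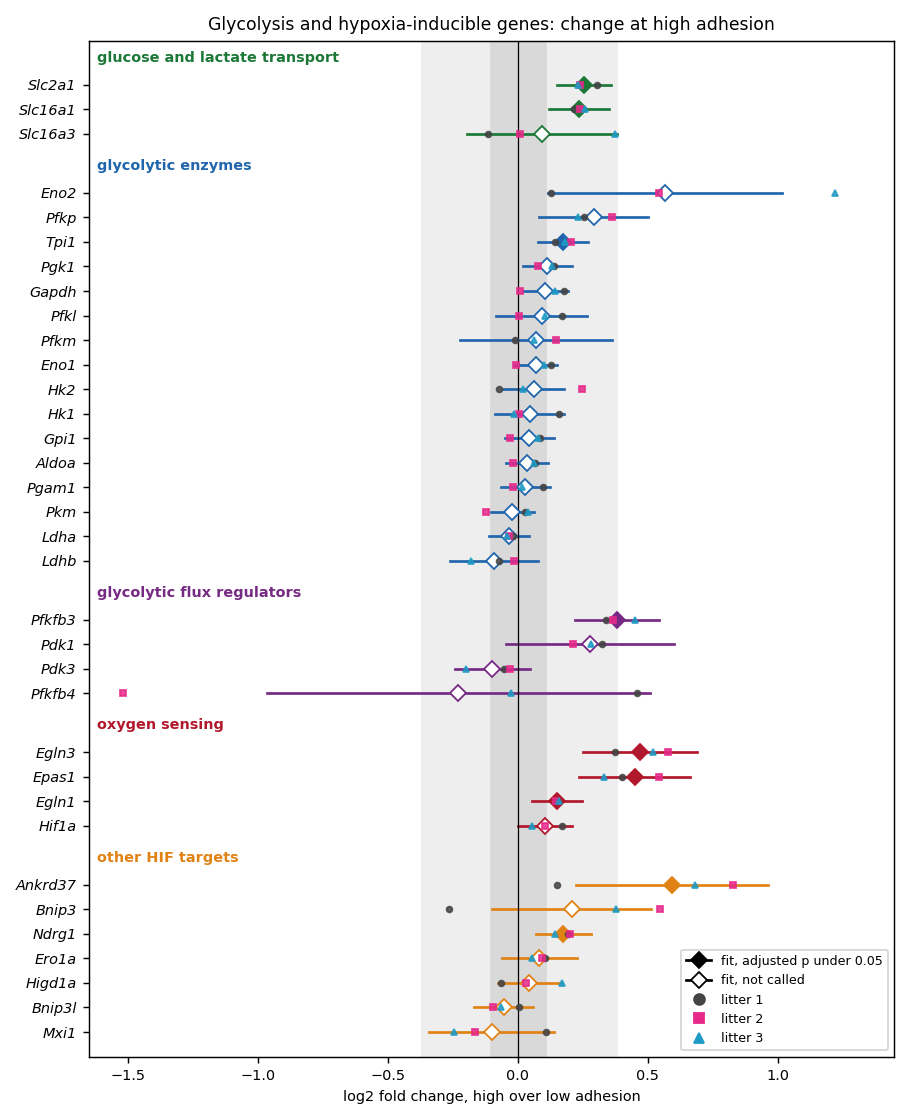
Fitted log2 fold change with its 95% interval for the 34 tested genes, with the ratio in each litter as points and grey bands for the central 50% and 90% of all genes. Intervals of the abundant enzymes are narrow and lie near 0, while Pfkfb4, Eno2 and Ankrd37 have the widest ones.

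Promoter sequences are shown for risen genes of 4 roles and, beside them, for 2 abundant HIF-inducible enzymes that did not pass, because the HIF core can be read in both. RefSeq's promoter table (GRCm38.p6) held windows for 33 of the 36 genes, and none were listed there for Epas1, Ndrg1 and Bnip3l. Each window is the 250 bases before a start site, 5′ to 3′ in the direction of the gene, and capitals mark ACGTG or GCGTG on either strand, so that CACGT and CACGC are the same cores read on the opposite strand. The windows are Slc2a1 (chr4:119108495-119108744, plus strand), Slc16a1 (chr3:104638414-104638663, plus), Egln3 (chr12:54203875-54204124, minus) and Ankrd37 (chr8:45999851-46000100, minus). Pfkfb3 has 2 start sites, given first and second (chr2:11553930-11554179 and chr2:11502091-11502340, minus). The enzymes are Ldha (chr7:46845554-46845803, plus), shown at the first of its 2 start sites, and Pgk1 (chrX:106186850-106187099, plus). The window at the other Ldha start (chr7:46846832-46847081) holds GCGTG once and no ACGTG.
Slc2a1: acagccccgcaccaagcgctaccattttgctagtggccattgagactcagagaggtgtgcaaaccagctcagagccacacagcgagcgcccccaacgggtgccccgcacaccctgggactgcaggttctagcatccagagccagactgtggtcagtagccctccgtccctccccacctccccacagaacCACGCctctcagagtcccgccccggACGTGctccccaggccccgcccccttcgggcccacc
Slc16a1: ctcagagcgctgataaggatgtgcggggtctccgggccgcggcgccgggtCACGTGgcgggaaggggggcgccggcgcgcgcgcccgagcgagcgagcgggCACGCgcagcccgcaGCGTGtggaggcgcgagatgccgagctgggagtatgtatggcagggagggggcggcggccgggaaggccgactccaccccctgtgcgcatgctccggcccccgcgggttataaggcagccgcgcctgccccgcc
Pfkfb3 first start: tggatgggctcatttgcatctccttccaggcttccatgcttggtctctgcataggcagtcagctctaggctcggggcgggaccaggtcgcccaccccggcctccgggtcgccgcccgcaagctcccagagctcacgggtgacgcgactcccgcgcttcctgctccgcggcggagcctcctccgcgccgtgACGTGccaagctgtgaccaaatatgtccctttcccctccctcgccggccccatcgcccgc
Pfkfb3 second start: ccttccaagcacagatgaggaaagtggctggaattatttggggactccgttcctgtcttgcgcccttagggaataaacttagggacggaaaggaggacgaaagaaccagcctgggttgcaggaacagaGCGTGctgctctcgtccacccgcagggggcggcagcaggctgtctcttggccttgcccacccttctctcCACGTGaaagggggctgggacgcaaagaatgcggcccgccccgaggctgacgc
Egln3: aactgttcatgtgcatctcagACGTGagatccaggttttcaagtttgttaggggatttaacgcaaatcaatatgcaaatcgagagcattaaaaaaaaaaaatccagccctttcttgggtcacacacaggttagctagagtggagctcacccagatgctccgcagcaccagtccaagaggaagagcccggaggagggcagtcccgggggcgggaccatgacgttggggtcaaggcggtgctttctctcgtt
Ankrd37: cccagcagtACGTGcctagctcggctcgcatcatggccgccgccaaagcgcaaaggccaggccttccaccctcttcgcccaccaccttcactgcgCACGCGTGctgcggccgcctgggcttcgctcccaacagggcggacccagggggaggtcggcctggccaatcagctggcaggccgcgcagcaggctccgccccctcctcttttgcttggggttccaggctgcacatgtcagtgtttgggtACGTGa
Ldha: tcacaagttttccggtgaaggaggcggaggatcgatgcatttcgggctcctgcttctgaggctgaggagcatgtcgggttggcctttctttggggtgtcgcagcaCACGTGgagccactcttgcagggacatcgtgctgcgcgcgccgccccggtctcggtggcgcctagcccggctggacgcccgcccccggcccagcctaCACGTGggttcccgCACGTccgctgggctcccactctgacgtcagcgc
Pgk1: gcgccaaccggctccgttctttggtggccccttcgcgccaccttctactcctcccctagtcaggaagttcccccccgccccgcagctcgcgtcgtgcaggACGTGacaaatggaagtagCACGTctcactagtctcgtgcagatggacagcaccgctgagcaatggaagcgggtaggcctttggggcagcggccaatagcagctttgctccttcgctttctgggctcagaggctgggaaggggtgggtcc

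The Slc2a1 window holds ACGTG 36 bases before the start and GCGTG on the opposite strand at 61. Slc16a1 holds CACGTG, which reads as ACGTG on both strands and is counted on each, at 199 to 200, and Ldha holds such a palindrome at 47 to 48 and at 144 to 145. Pgk1, whose ACGTG matches lie at 150 and 131, and Ldha thus carried the letters without passing the adhesion test. ACGTG was in 24 of the 48 windows of the set (50%), in 21.5% of 12559 windows of tested genes and in 16.6% of all 32851 windows. Either core was in 81.2% of the set's windows and in 56.1% of windows of tested genes. By role, ACGTG was in 3 of 3 transporter windows, 9 of 28 enzyme windows, 3 of 6 flux regulator windows, 3 of 3 oxygen-sensing windows and 6 of 8 windows of other HIF targets. It was in 7 of the 8 windows of risen genes, with none in that of Tpi1. The genes were chosen as glycolytic or HIF-inducible, so these shares describe the choice of genes, and a match is not a bound site.

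Both the main glucose importer and the main lactate carrier rose at high adhesion. Slc2a1 (ENSMUSG00000028645), which encodes GLUT1, had 83.6, 100.1 and 88.8 CPM at high adhesion in litters 1, 2 and 3, and 67.6, 84.8 and 75.6 CPM at low adhesion. Each high adhesion library lay above its litter partner, while the groups overlapped and litter 2 was highest on both substrates. The rise was 1.19-fold (95% interval 1.11 to 1.28, n = 3 litters; log2 0.26 ± 0.05 SE; edgeR quasi-likelihood adjusted p = 0.00108). DESeq2 called it too (adjusted p = 0.0336).

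Slc16a1 (ENSMUSG00000032902) encodes MCT1, which carries lactate and pyruvate across the membrane. It had 66.4, 61.5 and 62.7 CPM at high adhesion and 57.1, 52.0 and 52.3 CPM at low adhesion. Here the groups did not overlap, and the lowest high adhesion library lay above the highest low adhesion one. The rise was 1.18-fold (95% interval 1.09 to 1.28; edgeR adjusted p = 0.00666), and without litter 3 the adjusted p was 0.0595. Groups did not overlap in 7 of the 34 genes, all of them higher at high adhesion, where 7.82% of all tested genes lay wholly above and 7.6% wholly below. Slc16a3, the exporter MCT4 that glycolytic cells induce, had a mean of 5.76 ± 1.54 CPM at high and 5.38 ± 1.33 CPM at low adhesion (SD, n = 3 each), an estimate of 1.07-fold with a 95% interval of 0.87 to 1.30.

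Of the 16 tested glycolytic enzymes 1 rose (6.25%), near the 4.71% of all tested genes, and none fell. At an unadjusted edgeR p under 0.05, 5 lay higher and 0 lower, where 11.2% and 10.7% of all tested genes did. Their median log2 fold change was 0.07 and their range -0.09 to 0.57, with 13 positive and 3 negative. Tpi1 (ENSMUSG00000023456), triosephosphate isomerase, was the risen enzyme. It had 121.9, 132.8 and 136.6 CPM at high adhesion and 110.4, 115.3 and 120.5 CPM at low adhesion. The groups did not overlap, and the rise was 1.13-fold (95% interval 1.06 to 1.20; edgeR adjusted p = 0.0150). Without litter 3 its adjusted p was 0.123.

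Ldha (ENSMUSG00000063229), the most abundant enzyme when Eno1b is left out and a standard hypoxia-induced gene, had 643, 657 and 657 CPM at high adhesion and 651, 672 and 676 CPM at low adhesion. In every litter the high adhesion library lay slightly below its partner. The estimate was 0.98-fold with a 95% interval of 0.93 to 1.03 (edgeR adjusted p = 0.683), which leaves out a rise of the size seen in Slc2a1. The intervals of Pkm (0.93 to 1.04), Aldoa (0.97 to 1.08) and Pgam1 (0.96 to 1.09) likewise ended below 1.10. Enzymes with larger estimates missed the threshold. Gapdh stood at 1.08-fold (edgeR adjusted p = 0.118), Pgk1, the ATP-yielding phosphoglycerate kinase, at 1.08-fold (0.131), and Pfkp, the platelet phosphofructokinase, at 1.224-fold (0.0706).

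Eno2, the neuronal enolase, had the largest estimate of the enzymes, 1.48-fold with a 95% interval of 1.08 to 2.02 (edgeR adjusted p = 0.111). It had 2.74, 2.54 and 2.81 CPM at high adhesion and 2.51, 1.74 and 1.21 CPM at low adhesion. The groups did not overlap, at a mean of only 29.5 counts per library. Leaving out litter 1 gave an adjusted p of 0.0483 for Eno2, and leaving out litter 2 gave 0.0209 for Gapdh. The other enzymes Hk1, Hk2, Gpi1, Pfkl, Pfkm, Eno1 and Ldhb had estimates between -0.09 and 0.09 on the log2 scale, and none passed. Fractional counts, which mark reads shared between places or genes, were present in 5 or 6 libraries for 10 of the 17 enzymes. Eno1 shared most, and its copy Eno1b (ENSMUSG00000059040) took 32.9% to 34.5% of their joint counts. Adding the named copies to their genes changed no gene's adhesion call in the set. None of the risen genes had a copy added. Among them, Tpi1 and Egln1 held fractional counts in 5 of 6 libraries, so for these the effect of shared reads was not tested.

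Pfkfb3 rose among the regulators of glycolytic flux. Pfkfb3 (ENSMUSG00000026773) makes fructose 2,6-bisphosphate, the activator of phosphofructokinase. Its level was 24.03, 20.72 and 24.13 CPM at high adhesion and 19.0, 16.1 and 17.6 CPM at low adhesion. The groups did not overlap, each litter moved the same way, and the rise was 1.30-fold (95% interval 1.17 to 1.46; edgeR adjusted p = 0.00148).

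The pyruvate dehydrogenase kinases, which keep pyruvate out of the mitochondrial citric acid cycle, did not pass. Pdk3 (ENSMUSG00000035232) had 26.1, 29.6 and 26.9 CPM at high adhesion and 27.1, 30.3 and 30.8 CPM at low adhesion. Its groups overlapped, the high adhesion library was the lower one in each litter, and the estimate was 0.93-fold with an interval of 0.85 to 1.03. Pdk1, the HIF-induced kinase, averaged 4.17 ± 0.79 CPM at high and 3.43 ± 0.54 CPM at low adhesion (SD, n = 3 each), with an interval of 0.97 to 1.52. Pfkfb4 had a mean of 11.3 counts per library, and its interval, 0.51 to 1.42, covers changes in both directions.

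All 4 oxygen-sensing genes of the set lay higher at high adhesion in 3 of 3 litters, where 21.1% of all tested genes did. Of these 4 genes 3 rose, where 4.71% of all tested genes did. Epas1 (ENSMUSG00000024140), which encodes HIF-2 alpha, had 9.63, 19.4 and 9.03 CPM at high adhesion and 7.29, 13.3 and 7.17 CPM at low adhesion. Litter 2 was the highest on both substrates, so the groups overlapped although every pair moved the same way. The rise was 1.37-fold (95% interval 1.18 to 1.58; edgeR adjusted p = 0.00474), and without litter 2 the adjusted p was 0.117. Hif1a (ENSMUSG00000021109), which encodes HIF-1 alpha, had 90.7, 95.4 and 92.9 CPM at high adhesion and 80.6, 88.8 and 89.5 CPM at low adhesion. The groups did not overlap, but the estimate of 1.08-fold (1.00 to 1.16) missed the threshold of edgeR's quasi-likelihood test (adjusted p = 0.214).

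Egln1 and Egln3 encode prolyl hydroxylases (PHD2 and PHD3) that mark HIF alpha for degradation, and HIF itself induces both. Egln3 (ENSMUSG00000035105) had 14.1, 8.49 and 12.4 CPM at high adhesion and 10.9, 5.69 and 8.67 CPM at low adhesion. Litter 2 was lowest on both substrates, the reverse of Epas1, and the groups overlapped. The rise was 1.38-fold (95% interval 1.19 to 1.61; edgeR adjusted p = 0.00405). Egln1 (ENSMUSG00000031987) had 114.3, 121.5 and 117.7 CPM at high adhesion and 102.8, 109.6 and 105.4 CPM at low adhesion, without overlap. Its rise was 1.11-fold (1.04 to 1.19; edgeR adjusted p = 0.0397), and it no longer passed without litter 1 (adjusted p = 0.122), litter 2 (0.0750) or litter 3 (0.228). Egln2, a related prolyl hydroxylase outside the set, had 33.3, 33.1 and 32.2 CPM at high adhesion and 35.0, 34.8 and 36.1 CPM at low adhesion. Egln2 lay lower in each litter, without overlap, and did not pass (edgeR adjusted p = 0.385). The regulators Vhl, Arnt and Hif1an of the further list did not pass either.

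**Figure D4:**
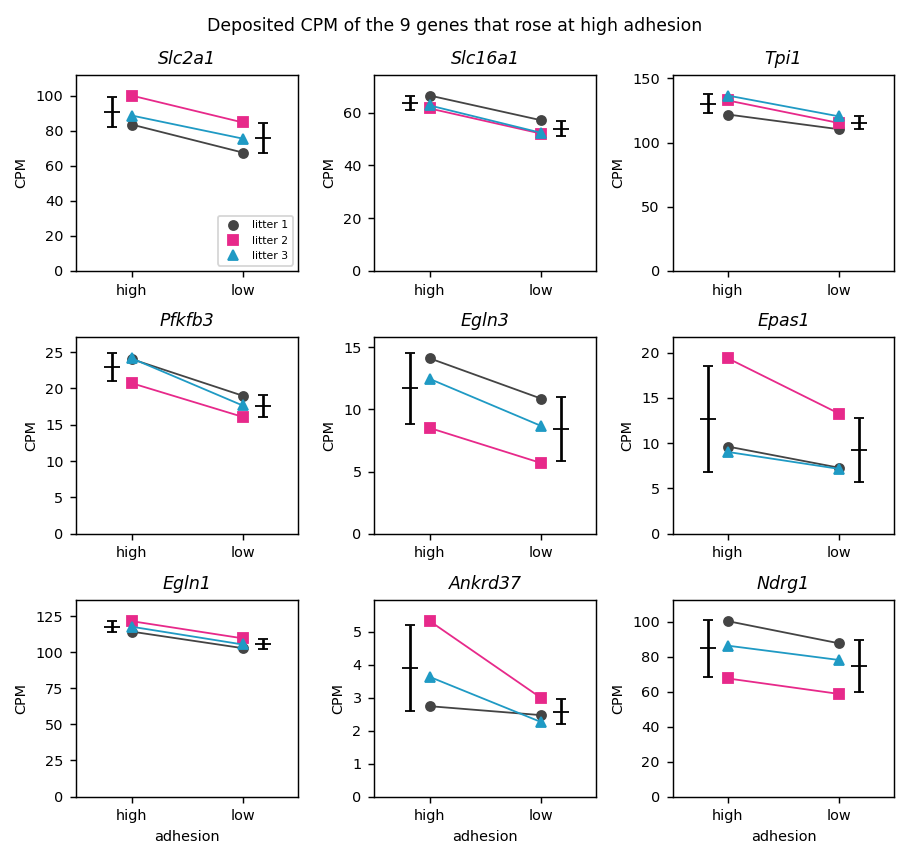
CPM of the 9 risen genes in each library, high adhesion left and low adhesion right, with the mean ± SD over 3 libraries and lines that join libraries of a litter. Every line is higher at its high adhesion end, and the groups overlap for Slc2a1, Epas1, Egln3, Ankrd37 and Ndrg1.

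Among the other HIF targets 2 of 7 tested genes rose (28.6%) and none fell, where 4.71% of all tested genes rose and 4.83% fell. The median log2 fold change of these targets was 0.08. Ankrd37 (ENSMUSG00000050914), an ankyrin repeat gene induced by HIF, had 2.74, 5.32 and 3.63 CPM at high adhesion and 2.47, 3.00 and 2.26 CPM at low adhesion. Litter 2 showed the widest gap, litter 1 a small one, and the groups overlapped. The rise was 1.51-fold with a wide interval of 1.17 to 1.95 (edgeR adjusted p = 0.0344). Without litter 2 the adjusted p was 0.291 and without litter 3 it was 0.139. Ndrg1 (ENSMUSG00000005125), a hypoxia- and stress-induced gene, had 100.4, 67.6 and 86.3 CPM at high adhesion and 87.7, 58.7 and 78.1 CPM at low adhesion. Litters differed more than substrates, and the groups overlapped. Its rise was 1.13-fold (1.05 to 1.216; edgeR adjusted p = 0.0287), lost without litter 1 (adjusted p = 0.140), litter 2 (0.0659) or litter 3 (0.100).

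The mitophagy receptors Bnip3 and Bnip3l, the endoplasmic reticulum oxidase Ero1a, the mitochondrial protein Higd1a and the MYC antagonist Mxi1 did not pass. Bnip3 averaged 6.33 ± 0.98 CPM at high and 5.44 ± 0.89 CPM at low adhesion (SD, n = 3 each), 1.16-fold with an interval of 0.93 to 1.43. The more abundant Bnip3l averaged 62.7 ± 1.6 CPM at high and 65.0 ± 1.3 CPM at low adhesion, 0.96-fold with an interval of 0.89 to 1.04. Ero1a, Higd1a and Mxi1 lay between -0.10 and 0.08 on the log2 scale.

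Set side by side, the glycolytic enzymes and the other HIF targets had nearly the same median log2 fold change, 0.07 over 16 genes and 0.08 over 7 genes. Both lay above the -0.0012 of all tested genes. The counts of risen genes, 1 of 16 and 2 of 7, rest on few genes, where 4.71% of all tested genes rose. The difference between the groups was not tested. HIF-induced genes such as Egln1, Egln3 and Pdk1 were placed in other roles. The 0.08 is thus not the median of all HIF-induced genes outside the enzymes. Transporters had a median of 0.24 over 3 genes with 2 risen, and flux regulators 0.09 over 4 genes with 1 risen. Oxygen-sensing genes had a median of 0.30 over 4 genes with 3 risen. Of the 34 genes 17 were higher at high adhesion in 3 of 3 litters and 3 were lower in 3 of 3, where all tested genes gave 21.1% and 20.2%.

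Litters differed in 10 of the 34 genes, by edgeR's test of litter in the same model, where 17.9% of all tested genes passed. Epas1 had the lowest adjusted p (2.48e-07), with litter means of 8.46, 16.3 and 8.10 CPM for litters 1, 2 and 3. Pfkp (edgeR adjusted p = 2.89e-05) averaged 10.5, 14.5 and 7.95 CPM, and Ankrd37 (0.0492) averaged 2.60, 4.16 and 2.95 CPM. Litter 2 was highest in these genes and in Slc2a1 and Eno1. Egln3 (edgeR adjusted p = 0.000222) averaged 12.5, 7.09 and 10.6 CPM, and Ndrg1 (8.86e-07) averaged 94.0, 63.1 and 82.2 CPM. Litter 2 was lowest in these, in Slc16a3 and in Gpi1, and Ldhb ran highest in litter 3 and lowest in litter 1. Between the highest and the lowest litter, Epas1 differed 2.02-fold, Pfkp 1.82-fold and Egln3 1.76-fold, each more than its adhesion fold. With named copies added to their genes, Ldhb no longer passed (edgeR adjusted p = 0.198, against 0.0365). Without litter 2 the count of genes that differed between litters was 3.

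**Figure D5:**
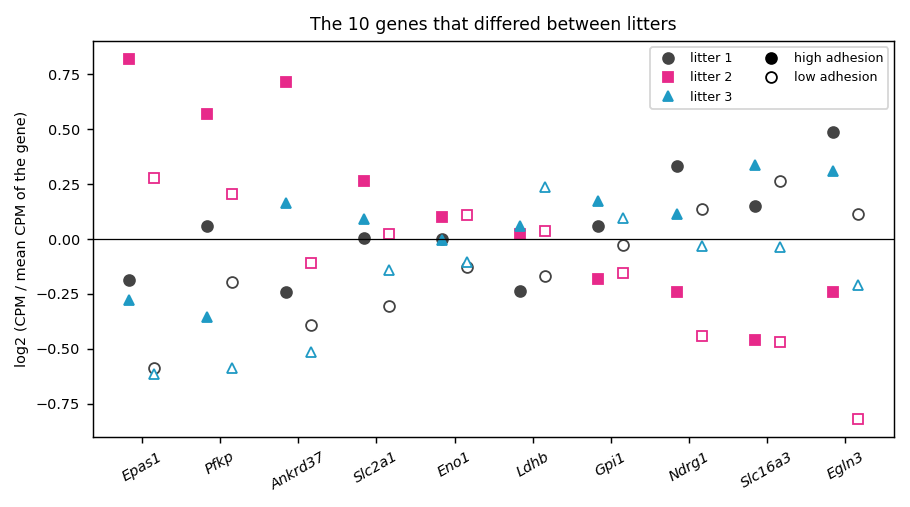
Log2 of CPM over the gene's mean for the 10 genes that differed between litters, with filled points for high and open points for low adhesion. Litter 2 stands highest for Epas1, Pfkp, Ankrd37, Slc2a1 and Eno1 and lowest for Egln3, Ndrg1, Slc16a3 and Gpi1.

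Further genes of glucose and pyruvate metabolism, from a list of 44, rose in 5 of 37 tested cases and fell in none, or 13.5% called where 9.55% of all tested genes were. At an unadjusted edgeR p under 0.05, 7 lay higher and 5 lower, where 11.2% and 10.7% of all tested genes did. Their median log2 fold change was 0.05. Slc2a3, the high-affinity glucose carrier GLUT3, had 29.0, 18.3 and 23.1 CPM at high adhesion and 19.38, 12.97 and 16.90 CPM at low adhesion. Each pair moved the same way and the groups overlapped, with a rise of 1.42-fold (edgeR adjusted p = 6.20e-05). The others were Slc16a7, the monocarboxylate carrier MCT2, at 1.49-fold, and Tigar, a fructose bisphosphatase, at 1.28-fold. Pck2, the mitochondrial PEP carboxykinase, rose 1.21-fold, and Dlat, a subunit of pyruvate dehydrogenase, 1.14-fold. Slc2a3 alone of the 5 passed whichever litter was left out. By the same edgeR test, Slc16a7 missed the threshold without litter 1 (adjusted p = 0.0938) or litter 3 (0.268), and Tigar without litter 2 (0.104) or litter 3 (0.0844). Pck2 (edgeR adjusted p = 0.0516 to 0.270) and Dlat (0.105 to 0.146) missed it whichever litter was left out.

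Further HIF targets and regulators, from a list of 45, rose in 7 of 43 tested cases and fell in 1, or 18.6% called where 9.55% of all tested genes were, with a median log2 fold change of 0.06. Stc2, a secreted glycoprotein of the stanniocalcin family, had 7.28, 4.29 and 5.11 CPM at high adhesion and 3.65, 1.74 and 3.09 CPM at low adhesion. The groups did not overlap, and the rise was 1.95-fold (edgeR adjusted p = 0.000155), above every fitted fold among the 34 tested genes. Its relative Stc1 rose 1.30-fold (edgeR adjusted p = 0.000214). Adm, the vasodilator peptide adrenomedullin, rose 1.44-fold, Hmox1, heme oxygenase, 1.16-fold, and Cited2, a HIF-induced inhibitor of HIF's binding to its coactivator, 1.13-fold. Vegfa, the vascular growth factor, rose 1.18-fold and Anln 1.14-fold. Loxl2, a collagen crosslinking oxidase, fell to 108.9, 125.2 and 95.9 CPM at high adhesion, against 133.3, 153.3 and 109.6 CPM at low adhesion. It fell in each litter (1.20-fold lower; edgeR adjusted p = 0.000341), with fractional counts in 6 of 6 libraries. Of the named genes of this list, Stc2, Stc1 and Loxl2 passed whichever litter was left out, while Cited2 (edgeR adjusted p = 0.131) and Hmox1 (0.171) did not pass without litter 3, nor Adm (0.0767) without litter 1. Vegfa did not pass without litter 3 (edgeR adjusted p = 0.157), nor Anln without litter 1 (0.0983) or litter 2 (0.0772).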

How the data were processed

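The authors deposited 1 table holding unscaled estimated counts and CPM. The CPM differ from values recomputed from the counts by at most 5.1e-11. Printed CPM are the authors' deposited values. The submitters' processing notes name STAR 2.7.11 and featureCounts (Subread 2.1.1) with build GRCm39, besides fastp 0.24.0, SAMtools 1.22.1, FastQC 0.12.1 and MultiQC 1.32. Strand setting and treatment of multiply matching reads are not given in the notes used here. Between 7736 and 8256 genes per library held fractional counts, so genes with copies or overlaps are uncertain.

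Rounded counts entered edgeR 4.0.16 (R 4.3.3), after filterByExpr (14834 genes) and TMM scaling (factors 0.988 to 1.011). A robust quasi-likelihood model held litter as a block, because the study's design matched the libraries by litter, and tested high minus low adhesion. Same-litter libraries deviated together, with correlations across genes of 0.622, 0.633 and 0.416 for litters 1, 2 and 3, on log2 of CPM plus 1. P-values are two-sided, with Benjamini-Hochberg adjustment across every tested gene and a threshold of 0.05. Standard errors are the log2 fold change over the root of the F statistic, and 95% intervals use the test's degrees of freedom. Each litter is a pool of kidneys, so the spread is between pools.

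The genes and lists were chosen with earlier results of these data known. Values per library are given for genes that passed, for the most abundant gene of each role and for Hif1a, Epas1, Egln1 and Egln3, and up to 6 genes of lowest adjusted p are named from each further list. Eno2, Vegfa, Anln, Egln2, Vhl, Arnt and Hif1an were added after their values were seen. Exon lengths came from GENCODE M21 (GRCm38) by gene identifier and matched 36 of 36 genes. Alternatives were no block, DESeq2 1.42.0, limma 3.58.1 with voom, other size factors, other filters, whole-part counts and each litter left out; adding named copies to their genes was chosen after seeing the data. The model was also run on counts simulated from its own fitted spread, and the outcome is not reported here. The simulated folds were larger than those of most genes of the set, so that run does not speak to the smaller changes.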

Additional observations from a re-analysis of the deposited data

How the results depend on the processing

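Without the replicate block, 36 of all tested genes passed in place of 1416, and 0 of the 34 genes of the set, with 0 in each role and in both further lists; same-litter libraries are paired by design, so that fit leaves the litter differences in the error. DESeq2 with the block called 407 of all genes and 1 of the 9 risen genes, with 8 of the 34 higher at an unadjusted p under 0.05, where 4.27% of all genes were, and 3 of the 34, Ankrd37 among them, given no adjusted p. By role it called 1 transporter, 0 enzymes, 0 flux regulators, 0 oxygen-sensing genes and 0 other HIF targets, and 1 and 4 genes of the glucose and HIF lists. Leaving out each litter gave 908 to 1553 called genes in all, 4 to 8 risen genes of the set, 0 to 2 enzymes, 0 to 1 other HIF targets, 1 to 2 transporters and 1 to 2 oxygen-sensing genes. It gave 1 to 4 genes of the glucose list, 5 to 11 of the HIF list, 3 to 8 genes that differed between litters, and medians of the other HIF targets of 0.053 to 0.11. With no filter on low counts 7 genes of the set and 2 oxygen-sensing genes passed, Egln1 (adjusted p = 0.0917) and Ndrg1 (0.0514) having lost their calls, and the other HIF targets had 1 call and a median of 0.12, and with a mean of at least 5 CPM they had 1 call. The log2 fold changes of genes that turned sign when a litter was left out ran from -0.069 to 0.23 for Slc16a3, -0.040 to 0.14 for Hk2, -0.047 to 0.019 for Pkm, -0.31 to 0.24 for Pfkfb4 and -0.016 to 0.11 for Higd1a, none of which passed. limma with voom, DESeq2's size factors and whole-part counts each kept all 9 calls. Adding copies kept them too, but no copy was added to any of the 9. Their own counts were thus unchanged, and that setting cannot show how shared reads affect them. The causes of these shifts were not tested. With 1 count worth 0.074 to 0.0794 CPM, changes in genes near 1 CPM, such as Pfkfb4, were not detectable at this depth unless large.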
